A study of Mus musculus with 40 samples.

Results

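RNA of whole mouse kidney taken 6 h after ischaemia-reperfusion injury (IRI) was compared with RNA of Control kidneys, using 8 of the 40 samples of the series. The injured group, named AKI for acute kidney injury, held 4 libraries (AKI_1 to AKI_4) and the Control group held 4 (Control_1 to Control_4), chosen by the column names of the therapy table. All were C57bl/6-wt mice with no named allele or transgene. AKI was labelled with the treatment IRI and with 6 h of reperfusion, and Control with the treatment given as NA. In the same table, other groups received human mesenchymal stromal cells during the operation. The injection protocol is printed with the AKI samples too, and the labels do not state whether AKI mice received a vehicle, how long or on which side the blood supply was clamped, or the age of the mice. The labels do not say whether the 4 replicates of a group were separate animals, so the p-values refer to spread among libraries that may be technical. The labels do not give Control kidneys a sham operation, so ischaemia and surgery cannot be told apart in this comparison.

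Ischaemia and the return of blood strike above all the straight S3 segment of the proximal tubule, which lies in the outer medulla where oxygen is scarce. Surviving tubule cells lose transporters and metabolic enzymes, switch on stress and injury genes, and later divide to restore the tubule. Endothelium, resident macrophages and incoming leukocytes take part in the same response.

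Library AKI_1 stood apart from the other AKI libraries. Across 16623 genes, log2 counts-per-million (CPM) of AKI_2, AKI_3 and AKI_4 correlated with each other at Pearson's r of 0.952 to 0.963, whereas AKI_1 correlated with them at 0.901 to 0.909. With the Control libraries AKI_1 correlated at 0.926 to 0.930, and the Control libraries with each other at 0.984 to 0.989. These are descriptions across genes, which are not independent replicates. In AKI_1, 3343 genes (20.1%) lay at least 2-fold above or below all of the other 3 AKI libraries, against 2.47% to 5.17% for AKI_2, AKI_3 and AKI_4 and 0.824% to 1.03% for each Control library within its own group. Where leaving AKI_1 out changed a list count or the call of a named gene, or moved its fold change by more than 1.5 times, the value without it is therefore given too. Over the names kept after 85 were skipped, as described below, AKI_1 held 15157068 counts, within the Control range of 14938484 to 16338711. AKI_2, AKI_3 and AKI_4 held 17425074, 17599984 and 18475869, above every Control library. Over all names, AKI_1 to AKI_4 held 19527909, 19634416, 19653268 and 21855829 counts, against 18249842 to 20065431 in Control. By that total only AKI_4 lay above every Control library. The part of these depths in the results was not tested. Of the counts over the names kept, the 2 ribosomal RNAs of mitochondria took 2.41%, 1.11%, 0.947% and 1.15% in AKI_1 to AKI_4. The mean was 1.40% ± 0.674 (SD, n = 4), against 0.201% ± 0.0166 in Control (exact two-sided permutation test p = 0.0286, the smallest that 4 against 4 allows). Skipped names, most protein genes of mitochondrial DNA among them, are not in these totals. Of 14403 names with at least 10 counts in every Control library, 14, 113, 297 and 203 stood at 0 in AKI_1 to AKI_4. Repeated gene names stood in the table as all pairings of their values over sets of columns, a pattern that joining by name would leave. The labels name no batch and do not say whether AKI and Control were processed together, so injury and any such difference cannot be told apart. Names whose Control counts disagreed between the therapy and temporal tables were left out, among them Havcr1, Lcn2, Il6 and Mki67, but a disagreement within the AKI columns alone would not show. Defining markers of the kidney were present in every library, including Umod of the thick limb, Aqp2 of the collecting duct and Slc34a1 of the proximal tubule, with values given below.

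Of 16623 genes tested, 5821 (35.0%) differed at an adjusted p under 0.05. Adjusted p-values of single genes all come from edgeR (quasi-likelihood fit) with Benjamini-Hochberg adjustment over all genes tested. Of these, 3317 rose (20.0% of the genes tested) and 2504 fell (15.1%). At least 2-fold rises numbered 1625 (9.78%) and at least 2-fold falls 1443 (8.68%), and the ranges of the groups did not overlap in 5475 genes (32.9%). Without AKI_1, 8167 of 17002 genes were called (48.0%), 4092 higher (24.1%) and 4075 lower (24.0%). The 2 sets shared 5518 genes, all with the same direction, while 303 were called only with AKI_1 and 2649 only without it. Every list below is read against these shares, and against the median log2 fold change of all genes tested, 0.056 with AKI_1 and -0.023 without it. Genes were grouped in 49 lists by cell type or function. In bulk tissue, fewer cells of a type and less RNA per cell cannot be told apart.

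**Figure D1:**
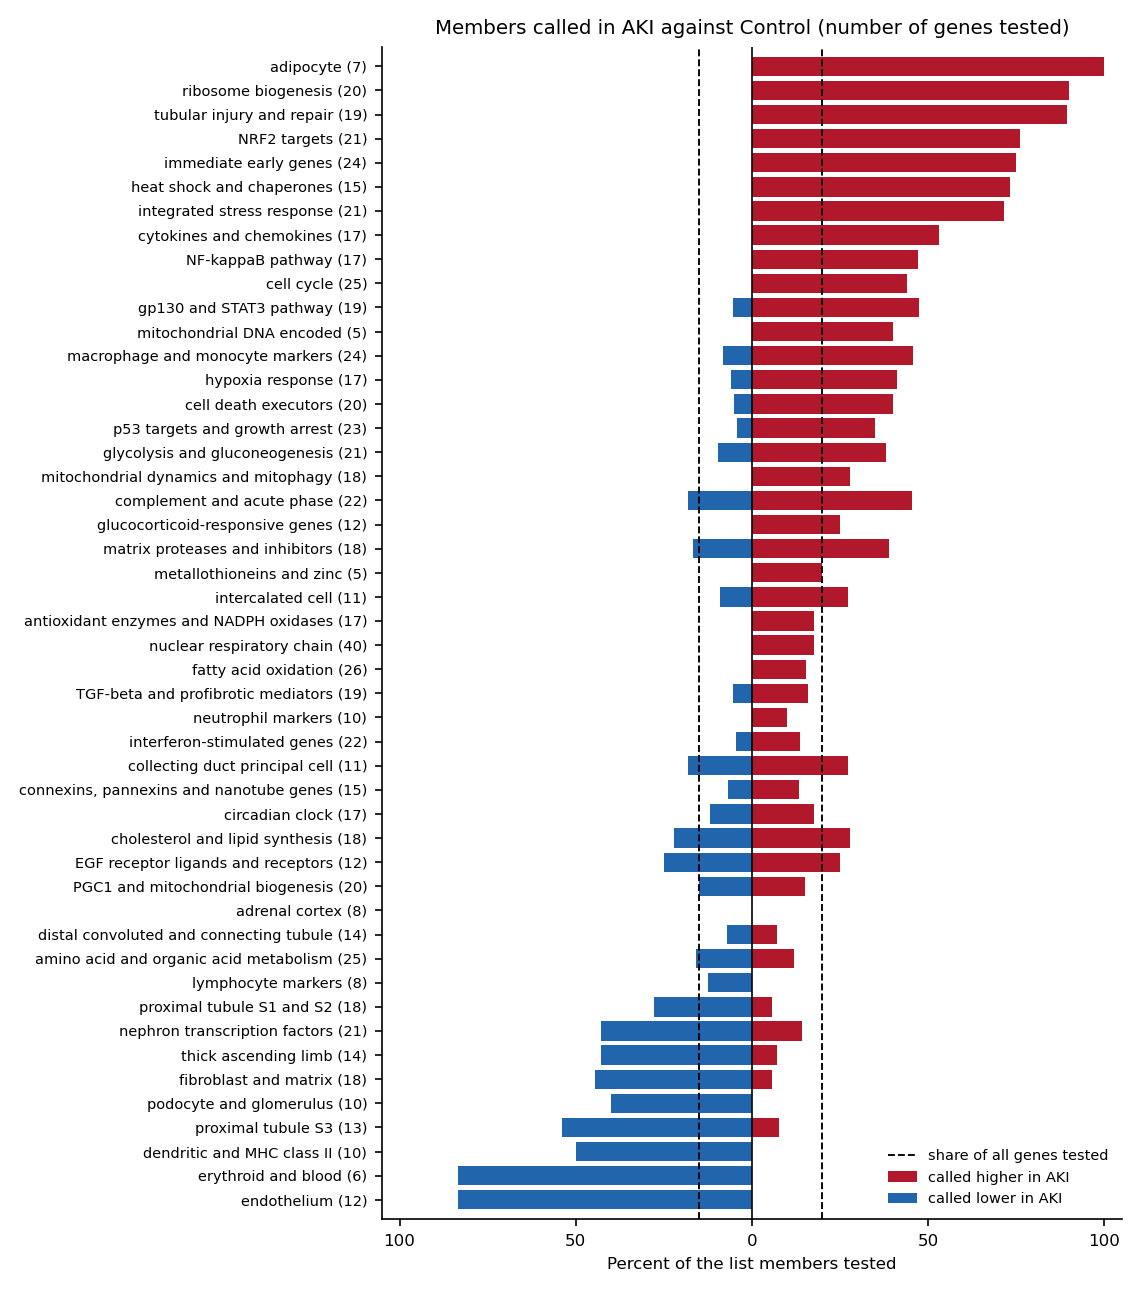
Share of the tested members of each gene list with at least 5 tested that rose or fell in AKI against Control (percent of members, edgeR adjusted p under 0.05), with dashed lines at the share of all genes tested. Tubular injury and ribosome biogenesis stand far above the background of 20.0% for rises, and endothelium stands above the 15.1% for falls.

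Genes of the injured tubule rose in AKI as a group. Of 19 tested members of the tubular injury list, 17 rose and 0 fell, with a median log2 fold change of 2.55. The count was also 17 without AKI_1. Sox9, a transcription factor of repairing tubule cells, had 18.3, 36.5, 94.2 and 51.8 CPM in AKI_1 to AKI_4, against 1.84, 1.23, 1.39 and 1.04 CPM in Control_1 to Control_4. This gave a log2 fold change of 5.18 ± 0.54 (SE, adjusted p = 9.6e-06), and the lowest AKI library lay above every Control library. Krt20, a keratin of injured epithelium, had 147, 190.0, 169 and 78.7 CPM in AKI_1 to AKI_4, against 11.9, 4.87, 4.55 and 13.9 CPM in Control_1 to Control_4, a log2 fold change of 4.05 ± 0.50 (SE, adjusted p = 3.8e-05). AKI_1 lay within the range of the other AKI libraries for Krt20, as it did for Cd44 and Lgals3. Cd44, a receptor for hyaluronan, had 75.7, 98.1, 43.8 and 74.9 CPM in AKI_1 to AKI_4, against 4.75, 2.08, 2.78 and 5.48 CPM in Control_1 to Control_4, with a log2 fold change of 4.27 ± 0.60 (SE, adjusted p = 9.6e-05). Lgals3, a galectin made by injured tubules and by macrophages, had 529, 617, 606 and 441 CPM in AKI_1 to AKI_4, against 57.2, 45.6, 35.5 and 49.9 CPM in Control_1 to Control_4 and a log2 fold change of 3.54 ± 0.31 (SE, adjusted p = 3.2e-06). Spp1, which encodes osteopontin, had 3133, 26759, 27113 and 16036 CPM in AKI_1 to AKI_4, against 1324, 809, 760.4 and 1291 CPM in Control_1 to Control_4. It had a log2 fold change of 4.13 ± 0.58 (SE, adjusted p = 9.4e-05), and here AKI_1 lay far below the other AKI libraries although still above every Control library. Timp1, an inhibitor of matrix proteases, rose with a log2 fold change of 2.55 (adjusted p = 0.00391).

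**Figure D2:**
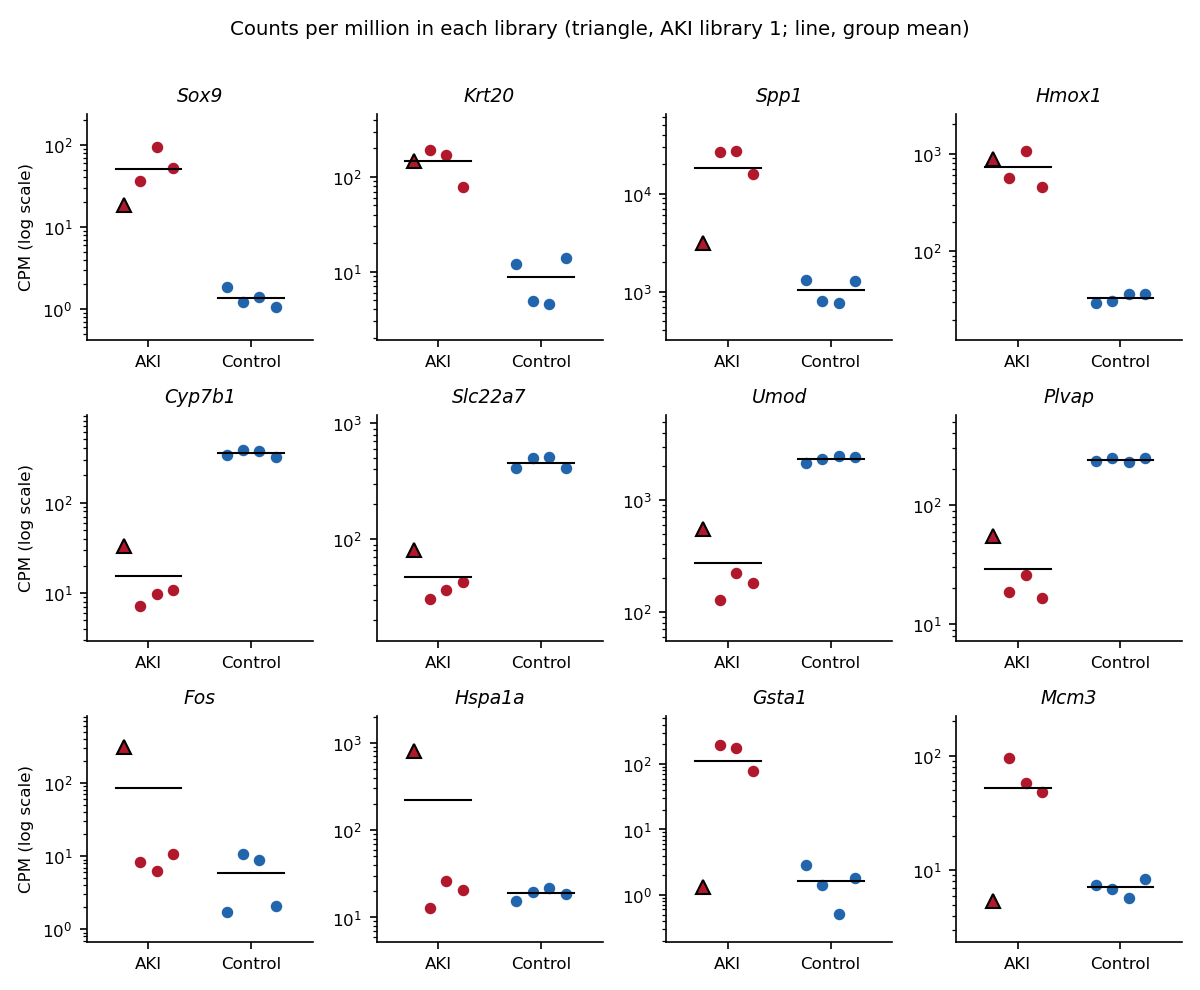
CPM of 12 genes in each library (log scale, 1 panel per gene), with the 4 AKI libraries left of the 4 Control libraries, a triangle for AKI_1, circles for all others and a line at each group mean. AKI_1 sits with the other AKI libraries for Krt20 and Hmox1, far above them for Fos and Hspa1a, and within or just under the Control range for Gsta1 and Mcm3.

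Genes of the S3 segment of the proximal tubule fell. Of 13 tested S3 markers, 7 fell and 1 rose, and 10 fell without AKI_1. Cyp7b1, an oxysterol hydroxylase, had 33.5, 7.12, 9.68 and 10.8 CPM in AKI_1 to AKI_4, against 339.9, 379, 373 and 323 CPM in Control_1 to Control_4. This was a log2 fold change of -4.54 ± 0.73 (SE, adjusted p = 2.6e-04), or -5.29 (adjusted p = 4.5e-05) without AKI_1. Slc22a13, a urate and nicotinate transporter, had 12.4, 3.21, 8.91 and 9.82 CPM in AKI_1 to AKI_4, against 107, 113, 117 and 108 CPM in Control_1 to Control_4 and a log2 fold change of -3.70 ± 0.39 (SE, adjusted p = 1.0e-05). Neither gene overlapped between the groups. Slc22a7, an organic anion transporter, had 80.7, 30.3, 36.2 and 43 CPM in AKI_1 to AKI_4, against 413, 501, 509.6 and 411 CPM in Control_1 to Control_4, with a log2 fold change of -3.27 (adjusted p = 0.00892). Slc22a19, another organic anion transporter, had 35.8, 4.87, 5.0 and 6.74 CPM in AKI_1 to AKI_4, against 115, 129, 139 and 118 CPM in Control_1 to Control_4, with a log2 fold change of -3.26 (adjusted p = 0.00455), or -4.52 (adjusted p = 1.7e-04) without AKI_1. AKI_1 held the highest AKI value of all these transporters and Cyp7b1, and for Slc22a19 it lay more than 2-fold above the next.

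In the S1 and S2 segments of the proximal tubule, AKI_1 stood near Control for many genes. Of 18 tested markers, 5 fell and 1 rose. Without AKI_1, 12 fell and 2 rose. The median difference from Control on the log2 scale was -0.086 in AKI_1 and -1.04 in the other AKI libraries. Slc5a2, which encodes the glucose transporter SGLT2, had 118, 80.3, 172 and 179 CPM in AKI_1 to AKI_4, against 246, 323, 339 and 264 CPM in Control_1 to Control_4, a log2 fold change of -1.09 ± 0.23 (SE, adjusted p = 0.00223). Slc6a19, a neutral amino acid transporter, had 385, 88.2, 102 and 70.7 CPM in AKI_1 to AKI_4, against 389.9, 465, 467 and 401 CPM in Control_1 to Control_4. AKI_1 lay just under the Control range while the other AKI libraries were clearly below, and the log2 fold change was -1.42 (adjusted p = 0.0372), or -2.33 (adjusted p = 2.3e-04) without AKI_1. Slc34a1, the main phosphate transporter of the proximal tubule, had 4756, 1697, 1479 and 2301 CPM in AKI_1 to AKI_4, against 4503, 5345, 5618 and 4736 CPM in Control_1 to Control_4. It did not pass the test with AKI_1 at a log2 fold change of -0.98 (adjusted p = 0.111), and fell without it at -1.49 (adjusted p = 0.0134). Lrp2, which encodes the endocytic receptor megalin, had 359, 1343, 1076 and 1263 CPM in AKI_1 to AKI_4, against 1762, 1892, 2203 and 1809 CPM in Control_1 to Control_4. For Lrp2 the order was reversed, with AKI_1 the lowest library, and the log2 fold change was -0.92 (adjusted p = 0.0573). Miox, an inositol oxygenase, and Fbp1, an enzyme of gluconeogenesis, fell with log2 fold changes of -1.39 (adjusted p = 0.0427) and -1.14 (adjusted p = 0.0311), or -2.01 (adjusted p = 0.00332) and -1.61 (adjusted p = 0.00195) without AKI_1, and in both AKI_1 was nearest to Control. Slc6a19 was not called without AKI_2, AKI_3, AKI_4 or any 1 Control library (adjusted p = 0.0563 to 0.103). Miox was not called without AKI_2, AKI_3, AKI_4 or any 1 Control library (adjusted p = 0.0659 to 0.115), and Fbp1 was not called without AKI_2, AKI_3, AKI_4, Control_1, Control_2 or Control_3 (adjusted p = 0.0505 to 0.0874).

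Among all genes, the other deep falls were of several kinds. Mettl7a2, a methyltransferase family member, had 7.38, 0.641, 0.641 and 2.96 CPM in AKI_1 to AKI_4, against 108, 88.6, 101 and 88.9 CPM in Control_1 to Control_4, a log2 fold change of -5.06 ± 0.88 (SE, adjusted p = 4.9e-04), or -6.09 (adjusted p = 8.5e-05) without AKI_1. Serpina1d, one of several near-identical alpha-1-antitrypsin genes whose reads may be split between copies, had 10.9, 1.54, 7.37 and 4.85 CPM in AKI_1 to AKI_4, against 143, 162, 160.5 and 131 CPM in Control_1 to Control_4, with a log2 fold change of -4.60 (adjusted p = 5.9e-05). Mep1b, a brush border metalloprotease, had 53.6, 11, 10.4 and 19.8 CPM in AKI_1 to AKI_4, against 246, 289, 290.2 and 245 CPM in Control_1 to Control_4, with a log2 fold change of -3.50 (adjusted p = 9.6e-04), or -4.31 (adjusted p = 9.4e-05) without AKI_1. Hpd, an enzyme of tyrosine breakdown, had 5.76, 4.1, 2.76 and 8.87 CPM in AKI_1 to AKI_4, against 62, 57, 56.6 and 62.1 CPM in Control_1 to Control_4, with a log2 fold change of -3.46 (adjusted p = 0.00463). Slc9a8, a sodium-proton exchanger, had 78.6, 47.1, 53.4 and 48.2 CPM in AKI_1 to AKI_4, against 438, 499.7, 516 and 471 CPM in Control_1 to Control_4. That was a log2 fold change of -3.08 ± 0.24 (SE, adjusted p = 2.1e-06). Fam107a, a stress-responsive actin-binding protein gene, and Ppp1r1b, which encodes the phosphatase inhibitor DARPP-32, fell with log2 fold changes of -3.92 (adjusted p = 5.8e-06) and -3.56 (adjusted p = 3.0e-06).

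Transcription factors that set nephron identity fell more often than they rose. Of 21 tested members, 9 fell and 3 rose, and 11 fell without AKI_1. Irx1, a homeobox factor of the nephron, had 14.5, 7.82, 7.24 and 6.57 CPM in AKI_1 to AKI_4, against 99.1, 104, 92.7 and 96.5 CPM in Control_1 to Control_4. This was a log2 fold change of -3.44 ± 0.27 (SE, adjusted p = 2.1e-06) and the groups were far apart. Tcf21, a factor of glomerular and stromal cells, had 4.71, 2.44, 1.54 and 1.83 CPM in AKI_1 to AKI_4, against 30.5, 32.7, 29.5 and 29.1 CPM in Control_1 to Control_4, a log2 fold change of -3.54 ± 0.38 (SE, adjusted p = 1.1e-05). Hnf4a, which drives proximal tubule genes, was among those that fell, and Sox9, Tfap2a and Tfcp2l1 were the ones that rose.

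Transcripts of the thick ascending limb were low in AKI. Of 14 tested markers, 6 fell and 1 rose, with a median log2 fold change of -0.71, and 7 fell without AKI_1. Umod, which encodes uromodulin, had 555, 126, 223 and 179 CPM in AKI_1 to AKI_4, against 2139, 2322, 2469 and 2415 CPM in Control_1 to Control_4. The log2 fold change was -3.11 ± 0.84 (SE, adjusted p = 0.00954), or -3.76 (adjusted p = 0.00348) without AKI_1, and AKI_1 was the highest of the AKI libraries. Slc12a1, the sodium-potassium-chloride transporter targeted by loop diuretics, had 446, 55.2, 82.5 and 132 CPM in AKI_1 to AKI_4, against 1127, 973, 914 and 1145 CPM in Control_1 to Control_4, with a log2 fold change of -2.54 (adjusted p = 0.00232), or -3.56 (adjusted p = 1.1e-05) without AKI_1. Egf, the epidermal growth factor gene, had 973, 39.1, 50.4 and 103 CPM in AKI_1 to AKI_4, against 1019.9, 1039, 1258 and 1062 CPM in Control_1 to Control_4. AKI_1 lay just under the Control range and the other AKI libraries were far below it. This gave a log2 fold change of -1.91 (adjusted p = 0.0985) with AKI_1 and -4.12 (adjusted p = 1.8e-04) without. Tmem207, a membrane protein gene of this segment, fell with a log2 fold change of -2.58 (adjusted p = 0.00734), or -3.24 (adjusted p = 0.00124) without AKI_1. Cldn14, a claudin that limits calcium uptake in this segment, was the member that rose (adjusted p = 0.00678), with 0, 5.39, 3.08 and 1.66 CPM in AKI_1 to AKI_4, against 0.0594, 0, 0.379 and 0 CPM in Control_1 to Control_4. Its Control libraries were at or near 0 and so was AKI_1, so no fold is given.

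Markers of the distal convoluted tubule and connecting tubule showed 1 rise and 1 fall among 14 tested, or 1 and 6 without AKI_1. Trpv5, the calcium channel of this segment, rose, with 78.5, 32.5, 30.3 and 31.4 CPM in AKI_1 to AKI_4, against 9.86, 10.8, 13.7 and 12.5 CPM in Control_1 to Control_4. It had a log2 fold change of 1.88 ± 0.33 (SE, adjusted p = 5.1e-04), and AKI_1 lay above the other AKI libraries. Klhl3, which controls the sodium-chloride transporter through WNK kinases, fell with a log2 fold change of -1.04 (adjusted p = 0.0104). Calb1, which encodes calbindin, had 1263, 210.0, 221 and 391 CPM in AKI_1 to AKI_4, against 261, 305, 291 and 253 CPM in Control_1 to Control_4. The excess lay in AKI_1, and the log2 fold change was 0.91 (adjusted p = 0.145) with it and -0.045 (adjusted p = 0.919) without it. In the collecting duct, Aqp2, the vasopressin-regulated water channel, had 443, 221, 244 and 337 CPM in AKI_1 to AKI_4, against 567, 548, 495 and 583 CPM in Control_1 to Control_4 and a log2 fold change of -0.82 (adjusted p = 0.0318). Aqp4, the basolateral water channel, had 26.6, 4.49, 3.46 and 11.2 CPM in AKI_1 to AKI_4, against 54.4, 46.9, 39.3 and 55.6 CPM in Control_1 to Control_4, with a log2 fold change of -2.11 (adjusted p = 0.00418), or -2.96 (adjusted p = 3.2e-05) without AKI_1. Gata3, a factor of collecting duct principal cells, rose, with 20.3, 28.9, 24.1 and 44.5 CPM in AKI_1 to AKI_4, against 14.2, 12.9, 10.1 and 11.8 CPM in Control_1 to Control_4 and a log2 fold change of 1.26 (adjusted p = 0.00172). Over the principal cell list, 3 rose and 2 fell of 11, or 4 and 4 without AKI_1. Of the 11 tested intercalated cell markers 3 rose and 1 fell, or 3 and 2 without AKI_1. The fall of Aqp2 was not called when AKI_2, AKI_3, AKI_4, Control_1, Control_2 or Control_4 was left out, with adjusted p = 0.0508 to 0.097.

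Immediate early genes, which are transcribed within minutes of a stimulus without new protein synthesis, split the AKI group. Of 24 tested members, 18 rose and none fell at the threshold with AKI_1, whereas 11 rose and 2 fell without it. AKI_1 lay at least 2-fold above every other AKI library for 18 of the 24, against 11.4% of all genes. The median difference from Control on the log2 scale was 3.07 in AKI_1 and 0.67 in the other AKI libraries. The bases before the transcription starts of Fos and Atf3 are shown because both genes were far higher in AKI_1, and they differed in whether the other AKI libraries were above Control. They are from RefSeq, build GRCm38.p6, 250 bases 5′ to 3′ on the strand of the gene, at chr12:85473640-85473889 (plus strand) and chr1:191183334-191183583 (minus strand). Capitals mark TGACG, the core of the cyclic AMP response element, on either strand, and in Atf3 also TGATGNAA, described with the stress response below.
Fos: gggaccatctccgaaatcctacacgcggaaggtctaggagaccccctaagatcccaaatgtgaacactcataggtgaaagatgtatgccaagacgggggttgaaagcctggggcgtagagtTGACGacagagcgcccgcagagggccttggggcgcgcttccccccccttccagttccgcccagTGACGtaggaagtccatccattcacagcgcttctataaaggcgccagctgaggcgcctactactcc
Atf3: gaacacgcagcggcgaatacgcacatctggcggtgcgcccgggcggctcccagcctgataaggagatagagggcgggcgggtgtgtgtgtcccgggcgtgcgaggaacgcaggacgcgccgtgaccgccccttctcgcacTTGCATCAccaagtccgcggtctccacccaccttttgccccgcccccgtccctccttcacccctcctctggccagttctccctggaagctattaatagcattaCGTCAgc

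Windows of 250 bases before to 50 after the start matched 11945 of the 16623 tested genes by symbol. TGACG stood on either strand in 20.8% of all 32851 windows, in 33.1% of the tested genes with a window, and in 12 of the 19 immediate early genes that had one. A match describes letters in a window and says nothing of binding. Fos, the partner of Jun in the AP-1 factor, had 314, 8.27, 6.22 and 10.7 CPM in AKI_1 to AKI_4, against 1.72, 10.9, 8.97 and 2.09 CPM in Control_1 to Control_4. AKI_1 alone stood above Control, whose own libraries fell into a lower and a higher pair, and the other 3 AKI libraries lay within the Control range. The log2 fold change of Fos was 3.84 ± 1.11 (SE, adjusted p = 0.0137) with AKI_1 and 0.49 (adjusted p = 0.498) without it. Fosb, a related factor, had 141, 1.09, 0 and 2.31 CPM in AKI_1 to AKI_4, against 0.891, 0.715, 0.821 and 0.718 CPM in Control_1 to Control_4, with a log2 fold change of 5.50 (adjusted p = 0.00972) with AKI_1 and 0.51 (adjusted p = 0.604) without it. Egr1, a zinc finger factor induced by growth signals, had 481, 24.6, 40.6 and 32.1 CPM in AKI_1 to AKI_4, against 19.9, 33.3, 27.9 and 18.3 CPM in Control_1 to Control_4. That was a log2 fold change of 2.54 (adjusted p = 0.0134), or 0.36 (adjusted p = 0.235) without AKI_1.

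Atf3, Fosl1, Klf6, Jun, Maff and Myc were above Control in every AKI library. Atf3, a stress-induced factor of the ATF family, had 298, 23.7, 27.9 and 17.3 CPM in AKI_1 to AKI_4, against 2.97, 2.21, 2.34 and 3.0 CPM in Control_1 to Control_4, a log2 fold change of 5.12 ± 0.83 (SE, adjusted p = 3.0e-04) and of 3.09 (adjusted p = 4.3e-06) without AKI_1. Fosl1 rose (adjusted p = 1.2e-05), with 11.6, 5.96, 5.06 and 3.49 CPM in AKI_1 to AKI_4, against 0.0594, 0.13, 0 and 0 CPM in Control_1 to Control_4. Control held 3 counts of Fosl1 in all, so no fold is given. Klf6, a zinc finger factor of injured epithelium, had 866, 90.9, 96.7 and 82.3 CPM in AKI_1 to AKI_4, against 43, 38.9, 37.8 and 42.3 CPM in Control_1 to Control_4, with a log2 fold change of 2.81 (adjusted p = 0.00571), or 1.12 (adjusted p = 0.0213) without AKI_1. Jun, the partner of Fos, rose with a log2 fold change of 2.63 (adjusted p = 0.0051), or 0.85 (adjusted p = 0.00278) without AKI_1. Maff, a small MAF factor, rose with a log2 fold change of 3.63 (adjusted p = 0.00147), or 1.85 (adjusted p = 5.3e-04) without AKI_1. Myc, a driver of growth and ribosome production, had 78.5, 54.8, 45.8 and 69.6 CPM in AKI_1 to AKI_4, against 6.77, 5.13, 4.74 and 4.44 CPM in Control_1 to Control_4. This was a log2 fold change of 3.56 ± 0.35 (SE, adjusted p = 6.3e-06), and AKI_1 stood close to AKI_4. Nr4a1, an orphan nuclear receptor, and Dusp1, a phosphatase that ends MAP kinase signals, showed no call with AKI_1 and a fall without it. Dusp1 had 267, 14.9, 24.7 and 13.4 CPM in AKI_1 to AKI_4, against 55.2, 80.1, 68.8 and 56.3 CPM in Control_1 to Control_4. AKI_1 was above every Control library and the other AKI libraries were below every one of them, with a log2 fold change of 0.30 (adjusted p = 0.767) with AKI_1 and -1.91 (adjusted p = 2.1e-05) without it. For Nr4a1 these values were 1.19 (adjusted p = 0.255) and -1.18 (adjusted p = 0.0361).

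Heat shock proteins, chaperones that refold damaged proteins, rose in 11 of 15 tested members and fell in none at the threshold, with or without AKI_1. Hspa1a, which encodes the inducible HSP70, had 815, 12.8, 25.9 and 20.5 CPM in AKI_1 to AKI_4, against 15.3, 19.7, 21.9 and 18.7 CPM in Control_1 to Control_4. AKI_1 alone stood well above Control, with a log2 fold change of 3.53 (adjusted p = 0.0152) with it and 0.035 (adjusted p = 0.949) without it. Hspa1b, a near-identical copy whose reads may be shared with Hspa1a, had 1171, 26, 53.9 and 23 CPM in AKI_1 to AKI_4, against 50.5, 64.7, 54.8 and 52.2 CPM in Control_1 to Control_4, with log2 fold changes of 2.52 (adjusted p = 0.05) and -0.73 (adjusted p = 0.14). By contrast, Hsp90aa1, the inducible HSP90, had 2715, 1893, 2572 and 2013 CPM in AKI_1 to AKI_4, against 442, 490.0, 502 and 452 CPM in Control_1 to Control_4. The log2 fold change was 2.29 ± 0.20 (SE, adjusted p = 3.0e-06), and all AKI libraries were at a like level. Hsph1, an HSP110 chaperone, had 1304, 251, 329.7 and 311 CPM in AKI_1 to AKI_4, against 156, 175, 192 and 154 CPM in Control_1 to Control_4, with a log2 fold change of 1.70 (adjusted p = 0.00535), or 0.78 (adjusted p = 0.00569) without AKI_1.

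The integrated stress response slows protein synthesis and, through ATF4, turns on genes for amino acid supply. Of 21 tested members, 15 rose and none fell at the threshold, with and without AKI_1, and the median log2 fold change was 2.16. AKI_1 lay at least 2-fold below every other AKI library for 8 of them, against 8.73% of all genes. The bases before the starts of Asns and Slc7a11 are shown because both rose in all AKI libraries and hold a match to TGATGNAA, the composite site of C/EBP and ATF factors, marked in capitals on either strand. They are from the same RefSeq table, at chr6:7693210-7693459 and chr3:50443614-50443863, both on the minus strand.
Asns: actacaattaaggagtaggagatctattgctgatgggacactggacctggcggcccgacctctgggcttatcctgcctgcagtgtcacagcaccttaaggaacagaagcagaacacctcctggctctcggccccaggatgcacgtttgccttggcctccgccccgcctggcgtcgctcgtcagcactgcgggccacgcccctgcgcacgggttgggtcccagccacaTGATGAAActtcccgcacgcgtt
Slc7a11: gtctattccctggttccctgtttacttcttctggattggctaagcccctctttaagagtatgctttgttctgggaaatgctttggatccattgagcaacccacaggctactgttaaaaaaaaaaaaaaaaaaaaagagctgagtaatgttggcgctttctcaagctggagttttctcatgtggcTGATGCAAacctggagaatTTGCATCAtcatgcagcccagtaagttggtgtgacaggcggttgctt

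The match in Asns begins 23 bases before the start, and those in Slc7a11 begin 66 and 47 bases before it. TGATGNAA stood in 3.97% of all windows, in 2.76% of the tested genes with a window, and in 7 of the 20 list members with one, namely Asns, Chac1, Fgf21, Herpud1, Slc7a11, Trib3 and Vldlr. It stood in Atf3 as well, 110 bases before the start. Asns, asparagine synthetase, had 22.2, 118, 109.9 and 98.5 CPM in AKI_1 to AKI_4, against 7.42, 7.47, 6.44 and 8.55 CPM in Control_1 to Control_4, a log2 fold change of 3.54 ± 0.44 (SE, adjusted p = 4.1e-05). Slc7a11, the cystine importer that feeds glutathione synthesis, had 2.25, 12.4, 15.3 and 5.44 CPM in AKI_1 to AKI_4, against 0.297, 0.065, 0.126 and 0.392 CPM in Control_1 to Control_4, with a log2 fold change of 5.28 ± 0.97 (SE, adjusted p = 7.3e-04). AKI_1 was the lowest AKI library in both, and still above every Control library. Trib3, a pseudokinase induced by ATF4, had 8.99, 56.8, 54.7 and 54.6 CPM in AKI_1 to AKI_4, against 1.37, 1.23, 1.39 and 1.5 CPM in Control_1 to Control_4, with a log2 fold change of 4.99 ± 0.56 (SE, adjusted p = 1.6e-05). AKI_2, AKI_3 and AKI_4 were nearly equal and AKI_1 lay between them and Control. Mthfd2, a mitochondrial enzyme of folate metabolism, had 31.8, 88.7, 104 and 70.7 CPM in AKI_1 to AKI_4, against 4.87, 4.42, 3.98 and 4.57 CPM in Control_1 to Control_4, with a log2 fold change of 4.05 (adjusted p = 3.2e-06). Fgf21, a stress hormone, was called as a rise (adjusted p = 0.0125), with 0.141, 1.09, 1.15 and 0.532 CPM in AKI_1 to AKI_4, against 0.0594, 0, 0.0631 and 0 CPM in Control_1 to Control_4. Shmt2, the serine enzyme that works beside Mthfd2, had a log2 fold change of -0.13 (adjusted p = 0.569).

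Targets of NRF2, the factor that answers oxidative stress, rose in 16 of 21 tested members, with none lower at the threshold and a median log2 fold change of 1.30. Without AKI_1 17 rose. The list split within AKI, since AKI_1 lay at least 2-fold below every other AKI library for 10 members and the median difference from Control on the log2 scale was 0.17 in AKI_1 and 1.60 in the others. Hmox1, the haem-degrading enzyme, had 884, 559, 1061 and 454 CPM in AKI_1 to AKI_4, against 29.4, 30.9, 36.2 and 36.4 CPM in Control_1 to Control_4. This gave a log2 fold change of 4.47 ± 0.35 (SE, adjusted p = 2.1e-06), and AKI_1 was among the 2 highest. Srxn1, sulfiredoxin, had 734, 662, 799.7 and 446 CPM in AKI_1 to AKI_4, against 91.8, 78.2, 82.2 and 93.5 CPM in Control_1 to Control_4 and a log2 fold change of 2.93 ± 0.28 (SE, adjusted p = 5.3e-06), again with AKI_1 in the range of the others. Nqo1, a quinone reductase, had 55.4, 448, 517 and 402 CPM in AKI_1 to AKI_4, against 68.6, 55.9, 59 and 63.2 CPM in Control_1 to Control_4. AKI_1 lay just under the Control range while the other AKI libraries stood far above it, and the log2 fold change was 2.53 (adjusted p = 9.5e-04). Gsta1, a glutathione transferase with close paralogs, had AKI_1 within the Control range, with 1.34, 199, 174 and 77.7 CPM in AKI_1 to AKI_4, against 2.85, 1.43, 0.505 and 1.83 CPM in Control_1 to Control_4 and a log2 fold change of 6.08 ± 1.06 (SE, adjusted p = 5.1e-04). Outside the list, Cbr3, a carbonyl reductase, had 0.492, 67.4, 67 and 51.6 CPM in AKI_1 to AKI_4, against 3.68, 4.68, 2.78 and 4.44 CPM in Control_1 to Control_4. Here AKI_1 was below every Control library, and the log2 fold change was 3.58 (adjusted p = 0.0034). The core letters of the antioxidant response element, TGACNNNGC, stood on either strand in 12.4% of all windows, 16.8% of tested genes with a window and 8 of 18 list members with one.

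Fibrinogen and other targets of the gp130 and STAT3 pathway, which carries signals of interleukin-6 and its relatives, included several genes that were high in 3 of the 4 AKI libraries. Fgb, the fibrinogen beta chain, had 1.76, 112, 232 and 58.3 CPM in AKI_1 to AKI_4, against 3.86, 1.82, 1.52 and 2.61 CPM in Control_1 to Control_4, with a log2 fold change of 5.36 ± 0.95 (SE, adjusted p = 5.8e-04), or 4.54 (adjusted p = 0.00182) without AKI_3. Fgg, the gamma chain, had 7.94, 590.1, 1016 and 364 CPM in AKI_1 to AKI_4, against 25.6, 14.3, 12.9 and 20.9 CPM in Control_1 to Control_4, and Fga, the alpha chain, had 26.1, 487, 937 and 343 CPM in AKI_1 to AKI_4, against 35.2, 27, 29.1 and 32.9 CPM in Control_1 to Control_4. Their log2 fold changes were 4.74 (adjusted p = 8.2e-04) and 3.85 (adjusted p = 8.0e-04), or 4.12 (adjusted p = 0.00273) and 3.20 (adjusted p = 0.00285) without AKI_3, the highest library. AKI_1 lay within or below the Control range for all 3 chains, and the other AKI libraries lay far above it. Lrg1, a secreted acute phase glycoprotein, followed the same order, with 7.24, 61.3, 84.7 and 55.3 CPM in AKI_1 to AKI_4, against 4.81, 5.07, 5.94 and 7.25 CPM in Control_1 to Control_4 and a log2 fold change of 3.18 (adjusted p = 8.1e-04). Cyp2a5, a cytochrome P450 outside the pathway list, was also arranged this way, with 99.4, 2673, 3253 and 3060.4 CPM in AKI_1 to AKI_4, against 169.6, 166, 131 and 168 CPM in Control_1 to Control_4 and a log2 fold change of 3.84 (adjusted p = 0.00112). Over the whole pathway list, 9 of 19 rose and 1 fell, and 4 fell without AKI_1. AKI_1 lay at least 2-fold above the other AKI libraries for 6 members and at least 2-fold below them for 5.

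Cytokines and chemokines rose in 9 of 17 tested members, with none lower at the threshold, and in 6 without AKI_1. Lif, a ligand of gp130, had 31.1, 11.8, 5.0 and 8.99 CPM in AKI_1 to AKI_4, against 0.95, 0.13, 0.189 and 0.979 CPM in Control_1 to Control_4, a log2 fold change of 4.63 ± 0.73 (SE, adjusted p = 2.3e-04), or 3.88 (adjusted p = 1.3e-04) without AKI_1. Cxcl1, which draws neutrophils, had 97.9, 31, 42.6 and 28.2 CPM in AKI_1 to AKI_4, against 1.54, 1.23, 0.442 and 1.83 CPM in Control_1 to Control_4, with a log2 fold change of 5.30 ± 0.55 (SE, adjusted p = 1.0e-05), or 4.71 (adjusted p = 1.1e-06) without AKI_1. For both genes AKI_1 was the highest library, and every AKI library lay above Control. Ccl7, which draws monocytes, rose with a log2 fold change of 5.01 (adjusted p = 7.2e-05). Cxcl2, a related neutrophil chemokine, rose with a log2 fold change of 3.89 (adjusted p = 0.0207), against 3.01 (adjusted p = 0.0766) without AKI_1 and 4.48 (adjusted p = 0.0337) without Control_1, and was not called without Control_3 or Control_4 (adjusted p = 0.0506 to 0.0577) either. Outside the list, Ccl9, another monocyte chemokine, had 21.7, 57.7, 44.9 and 52.4 CPM in AKI_1 to AKI_4, against 3.98, 2.66, 3.66 and 4.57 CPM in Control_1 to Control_4, with a log2 fold change of 3.57 (adjusted p = 3.8e-05). Acute phase genes were mixed, with 10 of 22 complement and acute phase genes higher and 4 lower, or 9 and 5 without AKI_1. Saa3, a serum amyloid, had 8.36, 10.5, 6.92 and 3.31 CPM in AKI_1 to AKI_4, against 1.01, 0.65, 0.253 and 0.783 CPM in Control_1 to Control_4 and rose with a log2 fold change of 3.41 (adjusted p = 0.00323). Saa1, whose close copies may share its reads, rose with a log2 fold change of 3.48 (adjusted p = 0.0013), or 4.44 (adjusted p = 0.00111) without Control_1. By the scaling of the joint fit given below, Control libraries held at most 0.545 CPM of Saa1, 0.606 CPM of Cxcl2 and 0.465 CPM of Ccl7. Control_3 held 0 for Saa1 and Cxcl2. The fold changes of Saa1, Cxcl2 and Ccl7 therefore rest on few Control counts. Serpina3n, a protease inhibitor of the acute phase, had 82.8, 101, 57.3 and 85.4 CPM in AKI_1 to AKI_4, against 7.12, 4.09, 2.78 and 7.9 CPM in Control_1 to Control_4, a log2 fold change of 3.90 ± 0.55 (SE, adjusted p = 9.8e-05). NF-kappaB pathway genes rose in 8 of 17, and in 5 without AKI_1, where 3 fell. Interferon-stimulated genes rose in 3 of 22 and fell in 1, or in 2 and 2 without AKI_1, shares below those of all genes.

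Cell cycle genes also split the AKI group. Of 25 tested cell cycle genes, 11 rose and none fell at the threshold, and 15 rose without AKI_1. The list mixes genes of DNA replication and of mitosis. Among its mitotic members, Ccnb1, Cdc20, Cenpf and Plk1 did not pass the test with AKI_1, at log2 fold changes of -0.36, -0.082, 0.0015 and 0.24 (adjusted p = 0.715, 0.941, 0.998 and 0.775). They are not all of the mitotic members, and their values without AKI_1 are not reported here. AKI_1 lay at least 2-fold below every other AKI library for 17 of the 25. The median difference from Control on the log2 scale was -0.56 in AKI_1 and 1.63 in the others. Mcm3, a subunit of the replicative helicase, had 5.41, 95.4, 58.3 and 47.7 CPM in AKI_1 to AKI_4, against 7.48, 6.82, 5.68 and 8.36 CPM in Control_1 to Control_4, with a log2 fold change of 2.87 ± 0.66 (SE, adjusted p = 0.00344). Rrm2, which makes deoxynucleotides, had 8.78, 113, 46.3 and 49.8 CPM in AKI_1 to AKI_4, against 11.6, 7.54, 6.5 and 9.53 CPM in Control_1 to Control_4, with a log2 fold change of 2.63 (adjusted p = 0.00538), or 1.99 (adjusted p = 0.0245) without AKI_2. Ccne1, the cyclin that starts S phase, had 1.41, 15.3, 7.88 and 7.51 CPM in AKI_1 to AKI_4, against 2.43, 0.975, 0.758 and 0.783 CPM in Control_1 to Control_4, and rose with a log2 fold change of 2.68 (adjusted p = 0.00259). In these 3 genes AKI_1 lay within the Control range or just below it. E2f1, a factor that drives S phase genes, rose with a log2 fold change of 2.10 (adjusted p = 0.00676). Uhrf1 and Tcf19 are outside the list and were chosen for the gap between AKI_1 and the other AKI libraries. Uhrf1, which maintains DNA methylation during replication, had 2.6, 92.2, 71.5 and 52.9 CPM in AKI_1 to AKI_4, against 4.39, 3.57, 2.02 and 4.05 CPM in Control_1 to Control_4 and a log2 fold change of 3.96 (adjusted p = 0.00166). Tcf19, a growth-linked factor, rose with a log2 fold change of 2.24 (adjusted p = 0.0154), and was not called without AKI_2 or Control_3 (adjusted p = 0.0509 to 0.0525). Top2a, the topoisomerase of chromosome segregation, had 4.29, 41.3, 17.6 and 24.8 CPM in AKI_1 to AKI_4, against 11.9, 5.2, 5.05 and 9.79 CPM in Control_1 to Control_4, with a log2 fold change of 1.46 (adjusted p = 0.11), or 1.77 (adjusted p = 0.033) without AKI_1. The E2F site TTTCCCGC stood in 2.11% of tested genes with a window and in 1 of 20 cell cycle genes, and its other form TTTGGCGC in 1.00% and in 3 of 20, Mcm3 among them in both cases.

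Cdkn1a, Plk3, Pmaip1 and Gdf15, genes of growth arrest and stress, were above Control in every AKI library. Cdkn1a, which encodes the inhibitor p21, had 172, 91.3, 82.5 and 55.3 CPM in AKI_1 to AKI_4, against 20.3, 10.4, 19.8 and 18.8 CPM in Control_1 to Control_4, a log2 fold change of 2.53 ± 0.48 (SE, adjusted p = 8.9e-04), with AKI_1 the highest. Plk3, a stress kinase, had 368, 13.7, 46.3 and 14.1 CPM in AKI_1 to AKI_4, against 8.55, 7.99, 11.9 and 9.27 CPM in Control_1 to Control_4, with a log2 fold change of 3.55 (adjusted p = 0.00618), or 1.36 (adjusted p = 0.0422) without AKI_1. Pmaip1, the cell death protein NOXA, had 195, 32.3, 37.2 and 26.7 CPM in AKI_1 to AKI_4, against 11, 15.8, 11.6 and 11.2 CPM in Control_1 to Control_4 and a log2 fold change of 2.56 (adjusted p = 0.00146), or 1.34 (adjusted p = 1.4e-04) without AKI_1. Gdf15, a stress hormone of the TGF-beta family, rose with a log2 fold change of 2.16 (adjusted p = 8.5e-04). Of 23 tested p53 targets, 8 rose and 1 fell, or 9 and 1 without AKI_1. Of 20 cell death genes 8 rose and 1 fell, or 9 and 2 without AKI_1. Ribosome biogenesis, the nucleolar work that precedes growth, had 18 of 20 genes higher with AKI_1 and as many without it. Ncl, nucleolin, had 621, 1123, 1215 and 981 CPM in AKI_1 to AKI_4, against 261, 225, 203 and 261 CPM in Control_1 to Control_4, with a log2 fold change of 2.05 ± 0.20 (SE, adjusted p = 6.0e-06). Nop58 and Nop56, core proteins of the particles that methylate ribosomal RNA, rose with log2 fold changes of 2.08 (adjusted p = 8.2e-06) and 2.04 (adjusted p = 1.4e-05). In all 3 genes AKI_1 was the lowest AKI library and lay above every Control library.

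Endothelial genes fell in nearly every member measured. Of 12 tested markers, 10 fell with AKI_1 and 12 without it, at median log2 fold changes of -1.94 and -2.55. Summed over the markers, the level was 439.9, 154, 169.7 and 149 CPM in AKI_1 to AKI_4 and between 821 and 872 CPM in Control. Plvap, of the diaphragms of fenestrated capillaries, had 54.8, 18.7, 25.8 and 16.5 CPM in AKI_1 to AKI_4, against 234, 247, 229 and 247 CPM in Control_1 to Control_4, with a log2 fold change of -3.05 ± 0.30 (SE, adjusted p = 7.2e-06). Eng, a TGF-beta co-receptor, had 52.1, 28.6, 31.2 and 25.7 CPM in AKI_1 to AKI_4, against 154, 162, 157 and 153 CPM in Control_1 to Control_4, with a log2 fold change of -2.19 ± 0.20 (SE, adjusted p = 3.7e-06). Tek, the angiopoietin receptor, had 20.0, 3.78, 8.52 and 2.84 CPM in AKI_1 to AKI_4, against 48.1, 46.3, 45.8 and 50.6 CPM in Control_1 to Control_4, and fell with a log2 fold change of -2.44 (adjusted p = 6.0e-04), or -3.27 (adjusted p = 1.2e-06) without AKI_1. Ehd3, a marker of glomerular capillaries, fell with a log2 fold change of -2.20 (adjusted p = 8.4e-05), or -2.82 (adjusted p = 1.0e-08) without AKI_1. AKI_1 was the highest AKI library in all of these, below every Control library. Cdh5, the adhesion protein of endothelial junctions, differed in that AKI_1 exceeded Control, with 58.2, 6.67, 4.94 and 7.39 CPM in AKI_1 to AKI_4, against 35.1, 40.7, 39.8 and 37.1 CPM in Control_1 to Control_4. It had a log2 fold change of -0.99 (adjusted p = 0.2), or -2.61 (adjusted p = 3.0e-06) without AKI_1. Tmem204, a membrane protein of endothelium, was among the deepest falls of all genes, with 8.08, 0.834, 1.54 and 1.42 CPM in AKI_1 to AKI_4, against 35, 37.6, 35 and 35.5 CPM in Control_1 to Control_4 and a log2 fold change of -3.60 ± 0.48 (SE, adjusted p = 6.8e-05), or -4.84 (adjusted p = 2.1e-09) without AKI_1.

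Podocyte genes fell in 4 of 10 tested members, and in 8 without AKI_1. Kirrel, a slit diaphragm protein, had 11.2, 4.17, 3.4 and 2.96 CPM in AKI_1 to AKI_4, against 16.1, 15.7, 16.4 and 16.3 CPM in Control_1 to Control_4, with a log2 fold change of -1.57 (adjusted p = 0.00423), or -2.23 (adjusted p = 1.5e-05) without AKI_1. Synpo, an actin organiser of foot processes, had 71.2, 25.4, 14.9 and 8.81 CPM in AKI_1 to AKI_4, against 61, 69.1, 65.2 and 65.9 CPM in Control_1 to Control_4. AKI_1 was above every Control library and the other AKI libraries were far below, and the log2 fold change was -1.12 (adjusted p = 0.049), or -2.02 (adjusted p = 1.5e-05) without AKI_1. The call of Synpo was lost when any other AKI library or any 1 Control library was left out, with adjusted p = 0.0741 to 0.131. Fibroblast and matrix genes fell in 8 of 18 and rose in 1, or in 9 and 2 without AKI_1. Pdgfra, a receptor of fibroblasts, had 27.3, 9.17, 6.22 and 7.39 CPM in AKI_1 to AKI_4, against 47.5, 50.2, 54 and 47.6 CPM in Control_1 to Control_4, a log2 fold change of -2.00 ± 0.37 (SE, adjusted p = 7.3e-04), or -2.74 (adjusted p = 3.0e-07) without AKI_1. Outside the list, Mgp, which blocks calcification, had 38.4, 15.9, 10.3 and 6.69 CPM in AKI_1 to AKI_4, against 115, 99.4, 86.8 and 109 CPM in Control_1 to Control_4. Mgp fell with a log2 fold change of -2.53 (adjusted p = 4.0e-04), or -3.25 (adjusted p = 2.4e-06) without AKI_1. Col1a2 and Col3a1, chains of fibrillar collagen, fell with log2 fold changes of -1.36 (adjusted p = 0.00125) and -1.11 (adjusted p = 0.0305), and Col1a1 had a log2 fold change of -0.89 (adjusted p = 0.0665). Thy1, a surface protein of fibroblasts, fell with a log2 fold change of -1.86 (adjusted p = 0.0291). Emilin1, an elastic fibre protein, and Tmem119, a membrane protein of osteoblasts and microglia, are not in the list either. They fell with log2 fold changes of -2.34 (adjusted p = 1.2e-04) and -1.65 (adjusted p = 6.7e-04). Col4a2, a basement membrane collagen, was the list member that rose, with 985, 637, 394 and 427 CPM in AKI_1 to AKI_4, against 211, 209, 234 and 216 CPM in Control_1 to Control_4 and a log2 fold change of 1.49 (adjusted p = 0.00451). Thy1 was not called without AKI_2, AKI_3, Control_1 or Control_4 (adjusted p = 0.0535 to 0.0821), and Col3a1 was not called without AKI_3, AKI_4, Control_1 or Control_4 (adjusted p = 0.0612 to 0.08).

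Macrophage and monocyte markers went in both directions. Of 24 tested, 11 rose and 2 fell, or 12 and 1 without AKI_1. Csf1r, the growth factor receptor of resident macrophages, had 30.5, 12.3, 16 and 13 CPM in AKI_1 to AKI_4, against 75.7, 95, 88.5 and 82.5 CPM in Control_1 to Control_4. That was a log2 fold change of -2.25 ± 0.25 (SE, adjusted p = 1.4e-05). Itgam, the integrin CD11b of myeloid cells, had 2.67, 11.2, 9.23 and 7.04 CPM in AKI_1 to AKI_4, against 1.01, 0.65, 0.379 and 0.783 CPM in Control_1 to Control_4, with a log2 fold change of 3.40 ± 0.54 (SE, adjusted p = 2.4e-04). Chil3 and Arg1, products of alternatively activated mouse macrophages, rose with log2 fold changes of 3.78 (adjusted p = 0.00695) and 3.57 (adjusted p = 0.0267), and Arg1 was not called without AKI_2, Control_1, Control_2 or Control_3 (adjusted p = 0.051 to 0.0954). Gpnmb, a lysosomal glycoprotein, rose with a log2 fold change of 2.91 (adjusted p = 0.00402), with AKI_1 below every Control library. Lyz2, lysozyme, had 28.8, 107, 109 and 107 CPM in AKI_1 to AKI_4, against 49.1, 30.7, 34.4 and 39.8 CPM in Control_1 to Control_4. AKI_1 lay below every Control library and the other AKI libraries above every one, with a log2 fold change of 1.20 (adjusted p = 0.056), or 1.46 (adjusted p = 0.00829) without AKI_1. Neutrophil markers had a summed level of 36.7, 12.3, 7.69 and 7.63 CPM in AKI_1 to AKI_4 and 4.35 to 7.38 CPM in Control. Of 10 tested, 1 rose by edgeR, namely Mmp8, a collagenase of neutrophil granules, with 5.27, 0.77, 0 and 0 CPM in AKI_1 to AKI_4, against 0.0594, 0.065, 0 and 0 CPM in Control_1 to Control_4 (adjusted p = 0.0383, or 0.294 without AKI_1, and 0.0733 to 0.0899 without single Control libraries). Without AKI_1, 0 neutrophil markers rose by edgeR and 1 fell. S100a9, a calcium-binding protein abundant in neutrophils, had 11.3, 4.43, 3.27 and 2.54 CPM in AKI_1 to AKI_4, against 1.54, 1.1, 1.01 and 1.83 CPM in Control_1 to Control_4, with a log2 fold change of 1.96 (adjusted p = 0.14), or 1.28 (adjusted p = 0.374) without AKI_1. Genes of antigen presentation fell in 5 of 10 members, or 6 without AKI_1, and rose in none at the threshold. H2-Eb1, a class II chain, had 47.1, 30.6, 40.2 and 29.3 CPM in AKI_1 to AKI_4, against 87, 87.7, 96 and 90.4 CPM in Control_1 to Control_4 and a log2 fold change of -1.29 (adjusted p = 0.00508), and Cd74, its invariant chain, fell with a log2 fold change of -1.18 (adjusted p = 0.0105). Clec9a, a receptor of dendritic cells, fell with a log2 fold change of -1.79 (adjusted p = 0.00459). Of 17 lymphocyte markers 9 were too low to test, 1 fell, and without AKI_1 1 rose and 2 fell. Their summed level was at most 11.7 CPM in AKI and 13.7 CPM in Control.

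Mitochondrial genes did not move as one. Nuclear genes of the respiratory chain rose in 7 of 40 and fell in none at the threshold, a share close to the 20.0% of all genes, or in 8 and 2 without AKI_1. The ribosomal RNAs encoded by mitochondrial DNA, by contrast, were far higher in AKI: mt-Rnr1 had 10093, 4836, 4399.7 and 5176 CPM in AKI_1 to AKI_4, against 837, 813, 699 and 733 CPM in Control_1 to Control_4, with a log2 fold change of 2.99 ± 0.30 (SE, adjusted p = 7.2e-06). mt-Rnr2 rose with a log2 fold change of 2.92 (adjusted p = 1.9e-05). AKI_1 was the highest library for both, at about 2-fold the other AKI libraries. Their high share moved with the AKI group as a whole, and its part in the other results was not tested. mt-Atp8, a subunit of ATP synthase, had 356, 5.71, 1.73 and 18.1 CPM in AKI_1 to AKI_4, against 20.1, 21, 6.82 and 5.94 CPM in Control_1 to Control_4. Only AKI_1 exceeded Control for mt-Atp8, with a log2 fold change of 2.82 (adjusted p = 0.0699) with AKI_1 and -0.68 (adjusted p = 0.48) without. Most other protein genes of mitochondrial DNA were left out for disagreeing Control counts.

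Regulators of mitochondrial number were mixed, with 3 higher and 3 lower of 20, and 10 lower without AKI_1. Ppargc1a, the coactivator PGC-1 alpha, had 73.3, 41.2, 32.4 and 49.4 CPM in AKI_1 to AKI_4, against 72.5, 69.6, 69.6 and 68.7 CPM in Control_1 to Control_4, with a log2 fold change of -0.51 (adjusted p = 0.0906), or -0.80 (adjusted p = 0.00443) without AKI_1. Esrra, its nuclear receptor partner, had 139, 111, 103 and 82.4 CPM in AKI_1 to AKI_4, against 199, 229, 217 and 182 CPM in Control_1 to Control_4 and fell with a log2 fold change of -0.93 (adjusted p = 0.00115). Pprc1, a growth-induced relative of PGC-1 alpha, had 44, 33.5, 44.7 and 36.9 CPM in AKI_1 to AKI_4, against 10.9, 11.3, 13.4 and 12.8 CPM in Control_1 to Control_4, a log2 fold change of 1.72 ± 0.20 (SE, adjusted p = 1.9e-05). Tfam, which packs mitochondrial DNA, rose with a log2 fold change of 0.47 (adjusted p = 0.0196), and was not called without AKI_2, AKI_3 or Control_3 (adjusted p = 0.0588 to 0.0719). Ppard, a lipid-sensing receptor, fell with a log2 fold change of -1.24 (adjusted p = 0.00813). Fatty acid oxidation genes rose in 4 of 26 and fell in none at the threshold with AKI_1, against 7 higher and 4 lower without it. Acadm, the medium-chain dehydrogenase, had 1039, 681, 609.5 and 764 CPM in AKI_1 to AKI_4, against 1335, 1326, 1347 and 1279 CPM in Control_1 to Control_4, with a log2 fold change of -0.77 (adjusted p = 0.107), or -0.98 (adjusted p = 0.0476) without AKI_1. For Ppara, the receptor that drives this pathway, it was -0.99 (adjusted p = 0.123), or -1.84 (adjusted p = 0.00145) without AKI_1. Pdk4, which blocks pyruvate oxidation, had 532, 123, 56.3 and 144 CPM in AKI_1 to AKI_4, against 61.4, 39.9, 57.3 and 70.1 CPM in Control_1 to Control_4, with a log2 fold change of 1.90 (adjusted p = 0.0376), or 0.89 (adjusted p = 0.214) without AKI_1. Pdk4 was not called without any 1 Control library (adjusted p = 0.065 to 0.0979).

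Ligands of the EGF receptor family differed in direction. Egf was low in AKI_2, AKI_3 and AKI_4, as given above. Areg, amphiregulin, had 5.13, 21.6, 16.2 and 14 CPM in AKI_1 to AKI_4, against 0.297, 0.195, 0.253 and 0.261 CPM in Control_1 to Control_4, with a log2 fold change of 5.78 ± 0.55 (SE, adjusted p = 5.6e-06). Nrg1, neuregulin, had 65.8, 58.9, 64.7 and 42.1 CPM in AKI_1 to AKI_4, against 8.97, 9.16, 9.53 and 10.2 CPM in Control_1 to Control_4, with a log2 fold change of 2.61 ± 0.26 (SE, adjusted p = 7.8e-06). Hbegf, a ligand released from the cell surface, had 276, 36, 49.4 and 32.9 CPM in AKI_1 to AKI_4, against 22.4, 23.8, 25.8 and 22.5 CPM in Control_1 to Control_4, and rose with a log2 fold change of 2.06 (adjusted p = 0.00934), or 0.71 (adjusted p = 0.0365) without AKI_1. Every AKI library lay above every Control library for Areg, Nrg1 and Hbegf. Over the list, 3 rose and 3 fell of 12, with 5 falls without AKI_1.

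The remaining lists went in both directions or moved in few members. Hypoxia genes, targets of the HIF factors, rose in 7 of 17 and fell in 1, or in 2 without AKI_1. Metallothionein and zinc genes rose in 1 of 5, and without AKI_1 1 rose and 1 fell. Genes of glycolysis and gluconeogenesis rose in 8 of 21 and fell in 2, or in 9 and 4 without AKI_1. Amino acid and organic acid enzymes rose in 3 of 25 and fell in 4, or in 4 and 9 without AKI_1. Lipid synthesis genes rose in 5 of 18 and fell in 4, or in 4 and 8 without AKI_1. Antioxidant enzymes rose in 3 of 17, or in 5 without AKI_1, where 1 fell. Mitochondrial dynamics and mitophagy genes rose in 5 of 18, or in 7 without AKI_1, with none lower at the threshold in either fit. Matrix proteases and inhibitors rose in 7 of 18 and fell in 3, or in 6 and 5 without AKI_1. TGF-beta mediators, which drive scarring, rose in 3 of 19 and fell in 1, or in 6 without AKI_1, and AKI_1 lay at least 2-fold above the other AKI libraries for 11 of them. Connexins and nanotube genes, of channels and bridges between cells, rose in 2 of 15 and fell in 1, or in 6 without AKI_1. Muscle genes rose in 1 of 4 and fell in 1.

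Markers of tissues beside the kidney also differed between libraries. All 7 tested adipocyte genes rose, with and without AKI_1. Their summed level was 1262, 2065, 1419.6 and 2223 CPM in AKI_1 to AKI_4, and between 400.4 and 603 CPM in Control. Fabp4, the fatty acid carrier of fat and capillaries, had 716, 1295, 866 and 1367 CPM in AKI_1 to AKI_4, against 281, 179, 157 and 246 CPM in Control_1 to Control_4 and a log2 fold change of 2.30 ± 0.37 (SE, adjusted p = 2.6e-04). Cidec, a lipid droplet protein, rose with a log2 fold change of 1.89 (adjusted p = 2.2e-04), Lep, which encodes leptin, with 1.87 (adjusted p = 0.00817), and Cidea, a lipid droplet protein of brown fat, with 1.85 (adjusted p = 0.00275). Their part in the other results was not tested. Of 8 adrenal cortex genes, 0 were called by edgeR, 0 had an unadjusted p under 0.05 and 0 were called by DESeq2, and they varied widely within both groups. Star, which brings cholesterol to steroid synthesis, had 386, 2.95, 20.1 and 4.85 CPM in AKI_1 to AKI_4, against 76, 8.12, 4.67 and 71.2 CPM in Control_1 to Control_4. Cyp11b1, the enzyme of glucocorticoid synthesis in the adrenal, had 93.7, 0.385, 8.4 and 1.18 CPM in AKI_1 to AKI_4, against 36.6, 2.86, 0.316 and 26.5 CPM in Control_1 to Control_4, and Hsd3b1, a steroid dehydrogenase, had 79.7, 1.22, 12.2 and 0.296 CPM in AKI_1 to AKI_4, against 76.7, 4.61, 1.07 and 65.8 CPM in Control_1 to Control_4. AKI_1, Control_1 and Control_4 were high, the other libraries low, and AKI_1 exceeded every other AKI library at least 2-fold in all 8 members. The log2 fold changes of Star, Cyp11b1 and Hsd3b1 were 1.37 (adjusted p = 0.451), 0.64 (adjusted p = 0.758) and -0.67 (adjusted p = 0.748), or -2.15 (adjusted p = 0.152), -2.36 (adjusted p = 0.199) and -3.06 (adjusted p = 0.122) without AKI_1. Red cell transcripts were lower in AKI. Haemoglobin transcripts took 0.0139% ± 0.00382 of the counts over the names kept in AKI, against 0.0494% ± 0.00768 in Control (SD, n = 4 each, exact two-sided permutation test p = 0.0286, the smallest possible). Hbb-bt, an adult beta globin with near-identical copies, had 13.5, 6.67, 12.3 and 10.7 CPM in AKI_1 to AKI_4, against 59, 55.4, 32.9 and 30.7 CPM in Control_1 to Control_4, with a log2 fold change of -2.04 (adjusted p = 0.00126), and Hba-a1, an alpha globin, fell with a log2 fold change of -1.67 (adjusted p = 0.0107). The 4 AKI libraries lay below all 4 Control libraries in both globins. Of 6 tested erythroid genes, 5 fell.

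Clock genes were called in 3 rises and 2 falls of 17, or 2 and 3 without AKI_1, and AKI_1 lay at least 2-fold above the other AKI libraries for 8 of the 17. The time of day at which kidneys were taken is not given. Cry1, a repressor of the clock, had 23, 6.8, 4.55 and 6.27 CPM in AKI_1 to AKI_4, against 2.67, 3.12, 3.35 and 3.2 CPM in Control_1 to Control_4, with a log2 fold change of 1.72 (adjusted p = 0.00504), or 0.90 (adjusted p = 0.00724) without AKI_1. Per2, another repressor, had 80.8, 14.4, 11.7 and 23.4 CPM in AKI_1 to AKI_4, against 7.66, 16, 16.2 and 9.21 CPM in Control_1 to Control_4, with a log2 fold change of 1.41 (adjusted p = 0.0372), or 0.41 (adjusted p = 0.332) without AKI_1. Arntl, the activator BMAL1, had 6.75, 1.22, 0.577 and 2.25 CPM in AKI_1 to AKI_4, against 8.25, 7.73, 7.96 and 9.21 CPM in Control_1 to Control_4, with a log2 fold change of -1.63 (adjusted p = 0.038), or -2.63 (adjusted p = 5.9e-04) without AKI_1. AKI_1 was the highest AKI library in all 3. Of 12 glucocorticoid-responsive genes, 3 rose and none fell at the threshold with AKI_1, whereas 1 rose and 2 fell without it, and AKI_1 stood at least 2-fold above the others for 7. Malat1, an abundant nuclear RNA, had 3013, 234, 233 and 260.1 CPM in AKI_1 to AKI_4, against 227, 163, 124 and 295 CPM in Control_1 to Control_4. The AKI_1 value was more than 10-fold the others, and the log2 fold change was 2.21 (adjusted p = 0.02) with AKI_1 and 0.23 (adjusted p = 0.482) without it. Per2 was not called without any 1 Control library (adjusted p = 0.0512 to 0.103), Arntl was not called without AKI_2, AKI_3, AKI_4 or any 1 Control library (adjusted p = 0.0624 to 0.104), and Malat1 was not called without Control_2 or Control_3 (adjusted p = 0.057 to 0.062).

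Some named genes need care. Cep85, a centrosomal protein gene, rose, with 836, 1711, 1798 and 1406 CPM in AKI_1 to AKI_4, against 119, 121, 108 and 132 CPM in Control_1 to Control_4 and a log2 fold change of 3.58 ± 0.32 (SE, adjusted p = 3.2e-06). Whether its counts belong to that gene could not be checked within the AKI columns. Eif5b, a translation initiation factor, had 196, 505, 789 and 835 CPM in AKI_1 to AKI_4, against 139, 112, 106 and 118 CPM in Control_1 to Control_4, and rose with a log2 fold change of 2.29 (adjusted p = 8.7e-05).

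**Figure D3:**
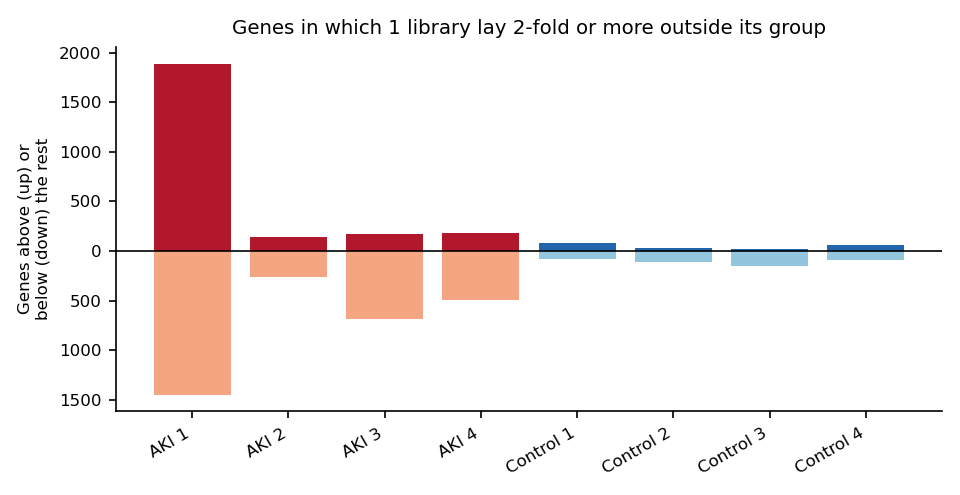
Number of genes, of the 16623 tested, for which a library lay at least 2-fold above (bars up) or below (bars down) all other libraries of its own group, with the 4 AKI libraries left of the 4 Control libraries. The bars of AKI_1 reach 1892 genes up and 1451 down, the longest of the 8 libraries in both directions.

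The direction in which AKI_1 departed from the other AKI libraries was not the same across functions. It lay at least 2-fold above all 3 for 1892 genes (11.4%) and at least 2-fold below all 3 for 1451 (8.73%). Above them were immediate early genes, TGF-beta mediators, adrenal genes (8 of 8), S1 and S2 proximal tubule markers (8 of 18), distal tubule markers (7 of 14) and endothelial markers (8 of 12). Below them were cell cycle genes, NRF2 targets, genes of the integrated stress response and macrophage markers (7 of 24). Among single genes with the widest gaps, Iigp1, an interferon-induced GTPase, had 178, 7.57, 5.96 and 10.5 CPM in AKI_1 to AKI_4, against 17, 12.9, 12.9 and 18.5 CPM in Control_1 to Control_4, with AKI_1 above every Control library and the other AKI libraries below every one. Slc10a5, a member of the bile acid transporter family, had 28.7, 2.18, 2.12 and 2.25 CPM in AKI_1 to AKI_4, against 24, 32, 34 and 24.5 CPM in Control_1 to Control_4, with AKI_1 in the Control range. Against Control, Iigp1 had a log2 fold change of 1.72 (adjusted p = 0.0996), or -0.97 (adjusted p = 0.00235) without AKI_1. For Slc10a5 it was -1.71 (adjusted p = 0.0676), or -3.74 (adjusted p = 3.8e-06) without AKI_1. These genes were chosen for the gap between AKI_1 and the other AKI libraries, so no test of that gap is given. For the tubular injury list AKI_1 and the others were close, with a median difference from Control of 2.28 in AKI_1 and 2.33 in the others on the log2 scale.

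**Figure D4:**
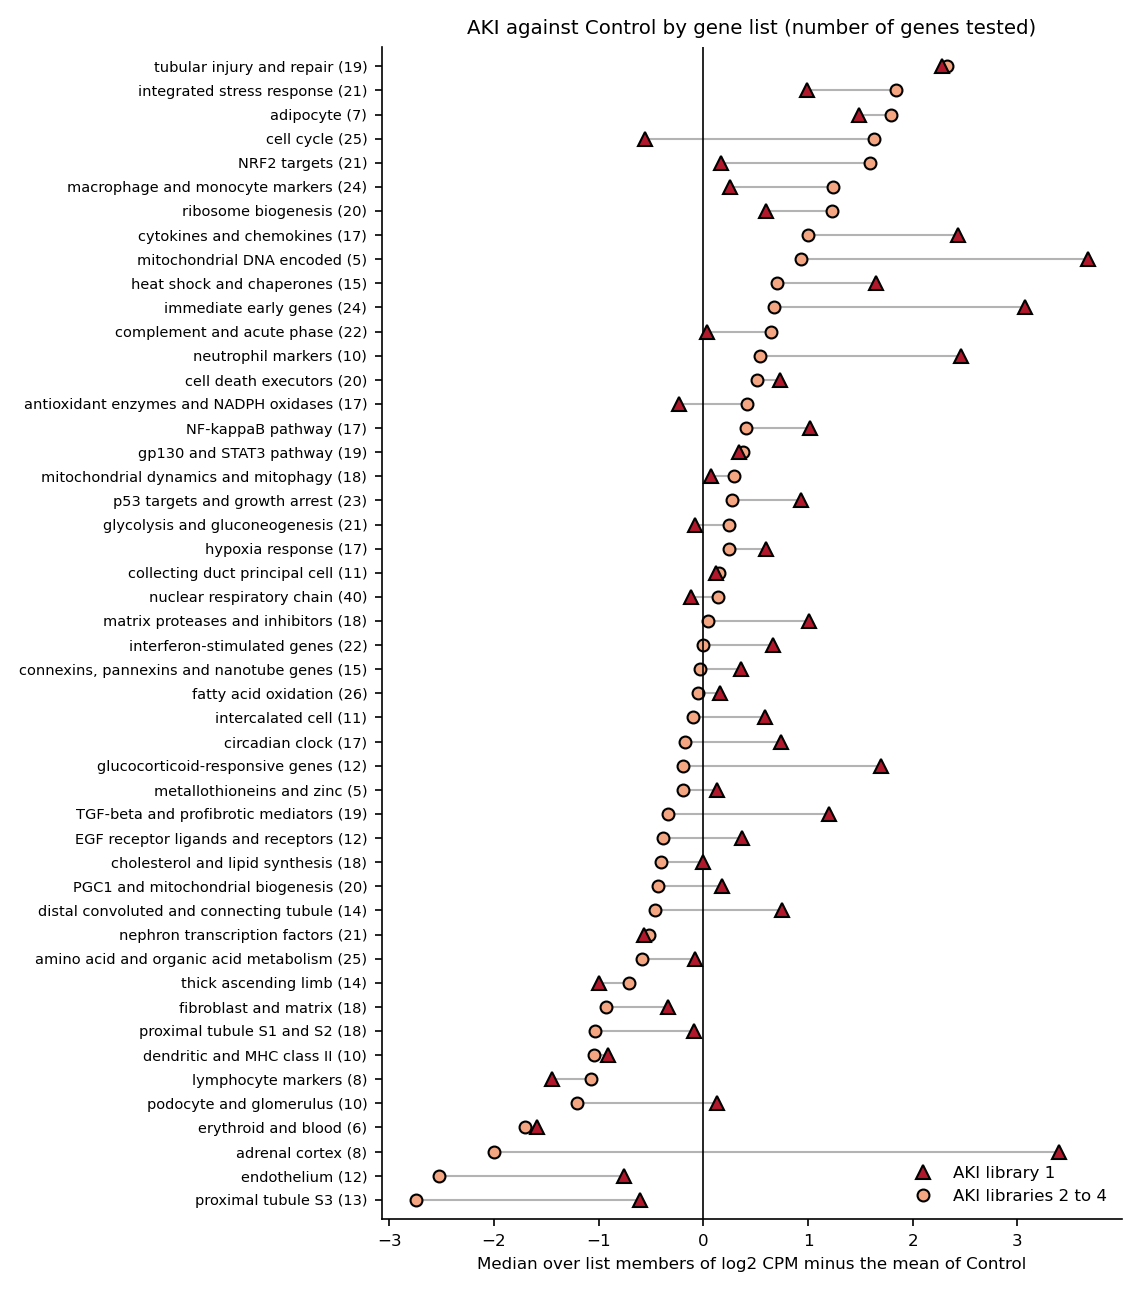
Median log2 CPM difference from the Control mean of each gene list with at least 5 tested members, in AKI_1 (triangles) and in the mean of AKI_2, AKI_3 and AKI_4 (circles). Immediate early genes lie at 3.07 in AKI_1 and 0.67 in the others, cell cycle genes at -0.56 and 1.63, and tubular injury genes at 2.28 and 2.33.

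The temporal arm of the series holds 4 libraries labelled as ischaemia-reperfusion at 6 h (IRI_6h_1 to IRI_6h_4), from the same strain. They carry the same library names as the AKI libraries, and the labels do not say whether the kidneys or operations were different ones. Their counts were not the same, with between 0.343% and 0.623% of names equal. AKI and IRI_6h were compared in a joint fit of 20 libraries with its own scaling, which moves CPM slightly from the values above. Of 16821 genes, 5800 (34.5%) differed, 2832 higher in AKI (16.8%) and 2968 lower (17.6%). This was about as large a share as between AKI and Control in the fit of 16 libraries. In fits of 2 groups alone the shares were not alike. There 3375 of 15552 genes were called between AKI and IRI_6h, a smaller share than the 5017 of 15365 between AKI and Control. In the joint fit without AKI_1, 7417 of 17172 genes were called (43.2%), 3382 higher (19.7%) and 4035 lower (23.5%). The median log2 fold change of all genes was 0.021. The groups came from different tables, so the sets of libraries and the tables cannot be told apart.

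Matrix genes were lower in AKI than in IRI_6h. Of 18 fibroblast and matrix genes, 14 were lower and none was higher at the threshold, with a median log2 fold change of -2.19. Without AKI_1, 14 were lower and 0 higher. Col3a1 had 62.7, 68.5, 46.8 and 58.8 CPM in AKI_1 to AKI_4, against 946, 919, 949 and 787 CPM in IRI_6h_1 to IRI_6h_4, a log2 fold change of -3.93 ± 0.38 (SE, adjusted p = 1.2e-06). Col1a1 had 25.9, 48.1, 41.5 and 47.6 CPM in AKI_1 to AKI_4, against 429, 632, 621 and 508 CPM in IRI_6h_1 to IRI_6h_4, with a log2 fold change of -3.75 ± 0.37 (SE, adjusted p = 1.6e-06). Neither gene overlapped between the groups, and AKI_1 was not apart from the other AKI libraries for Col3a1. The log2 fold change of Col1a2 was -3.51 (adjusted p = 7.7e-08). Outside the list, those of Mgp and Emilin1 were -4.63 (adjusted p = 3.0e-06) and -4.25 (adjusted p = 2.1e-07), and that of Mgp was -5.34 (adjusted p = 1.2e-07) without AKI_1. Tmem119, also outside the list, had 7.52, 3.78, 3.96 and 3.28 CPM in AKI_1 to AKI_4, against 130.2, 32.1, 27.5 and 24.9 CPM in IRI_6h_1 to IRI_6h_4, with IRI_6h_1 far above the other IRI_6h libraries and a log2 fold change of -3.53 (adjusted p = 2.5e-05). Neutrophil markers were lower in AKI in 9 of 10, and in 9 without AKI_1. S100a9 had 11.4, 4.43, 3.26 and 2.56 CPM in AKI_1 to AKI_4, against 164, 23, 26.4 and 22 CPM in IRI_6h_1 to IRI_6h_4, and the log2 fold change was -3.45 (adjusted p = 0.0109), or -4.11 (adjusted p = 0.00715) without AKI_1, again with IRI_6h_1 apart. Endothelial markers were lower in AKI in 10 of 12, and in 12 without AKI_1, among them Plvap, with 55.4, 18.7, 25.7 and 16.6 CPM in AKI_1 to AKI_4, against 429, 259, 221 and 215 CPM in IRI_6h_1 to IRI_6h_4 and a log2 fold change of -3.27 ± 0.31 (SE, adjusted p = 1.2e-06). Cell cycle genes were lower in 14 of 25 and higher in 0, or in 15 and 0 without AKI_1. Top2a had 4.33, 41.3, 17.5 and 25 CPM in AKI_1 to AKI_4, against 37.3, 146, 148 and 156 CPM in IRI_6h_1 to IRI_6h_4, with a log2 fold change of -2.47 (adjusted p = 0.00933), or -2.13 (adjusted p = 0.0161) without AKI_1. Mcm3, by contrast, had 5.46, 95.4, 58.1 and 48.1 CPM in AKI_1 to AKI_4, against 46, 62.4, 56.3 and 51.5 CPM in IRI_6h_1 to IRI_6h_4, at a log2 fold change of -0.061 (adjusted p = 0.944). Umod was also lower in AKI, with 561, 126, 222 and 180.5 CPM in AKI_1 to AKI_4, against 1342, 1701, 1720.1 and 1909 CPM in IRI_6h_1 to IRI_6h_4 and a log2 fold change of -2.61 (adjusted p = 0.0123), or -3.25 (adjusted p = 0.00423) without AKI_1.

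Other genes were higher in AKI than in IRI_6h. mt-Rnr2 had 15670.1, 7617, 6259 and 7389.6 CPM in AKI_1 to AKI_4, against 3199, 1297, 1295 and 1267 CPM in IRI_6h_1 to IRI_6h_4, a log2 fold change of 2.39 ± 0.36 (SE, adjusted p = 6.4e-05). Calb1 had 1276, 210.0, 220.4 and 394 CPM in AKI_1 to AKI_4, against 98.4, 76.7, 68.6 and 89.1 CPM in IRI_6h_1 to IRI_6h_4, with a log2 fold change of 2.66 (adjusted p = 2.8e-04), or 1.72 (adjusted p = 1.9e-04) without AKI_1. Eif5b had 198, 505, 786 and 841 CPM in AKI_1 to AKI_4, against 86.1, 114, 109 and 134 CPM in IRI_6h_1 to IRI_6h_4, with a log2 fold change of 2.39 ± 0.30 (SE, adjusted p = 1.2e-05), and AKI_1 was the lowest AKI library. Cidea was higher, with a log2 fold change of 2.73 (adjusted p = 9.1e-05). Srd5a2, a steroid reductase, had a log2 fold change of 2.77 (adjusted p = 0.0141), or 1.23 (adjusted p = 0.153) without AKI_1, and Malat1 one of 2.47 (adjusted p = 0.007), or 0.51 (adjusted p = 0.171) without AKI_1. Nuclear respiratory chain genes were higher in 15 of 40 and lower in none at the threshold, or in 14 and 0 without AKI_1. Heat shock genes were higher in 10 of 15 and lower in 1, or in 8 and 1 without AKI_1. Of 19 tubular injury genes, 1 was higher and 2 were lower, or 4 and 4 without AKI_1. For Krt20 the values were 149, 190.0, 169 and 79.3 CPM in AKI_1 to AKI_4, against 618, 127, 108 and 98.3 CPM in IRI_6h_1 to IRI_6h_4, at a log2 fold change of -0.69 (adjusted p = 0.348). IRI_6h_1 again stood apart for Krt20, and the other IRI_6h libraries lay within the AKI range, so the negative sign rests on IRI_6h_1. A p that misses the threshold does not show that these genes were at the same level.

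**Figure D5:**
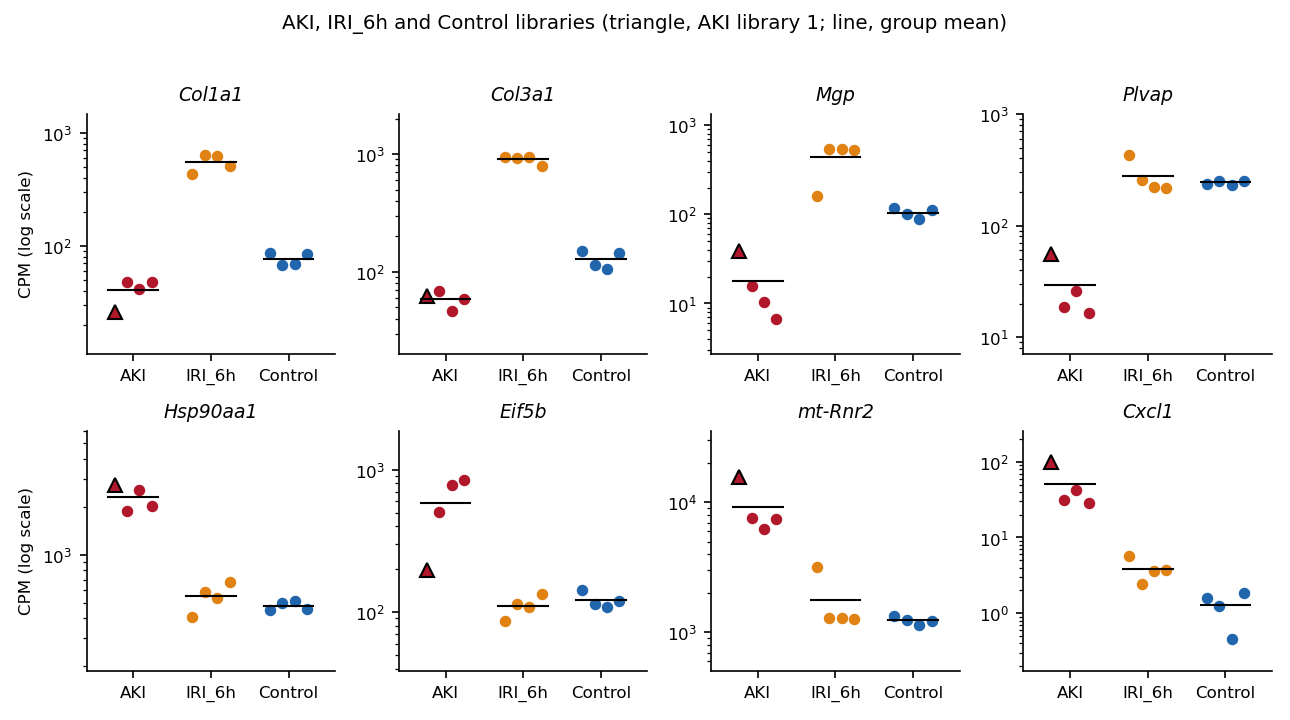
CPM of 8 genes (log scale, scaling of the joint fit) in the 4 AKI, 4 IRI_6h and 4 Control libraries, in that order from left to right, with a triangle for AKI_1 and a line at each group mean. Col3a1 is lowest in AKI and highest in IRI_6h, whereas mt-Rnr2 is highest in AKI.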

How the data were processed

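RNA sequencing measured total RNA of whole kidney. The authors deposited raw read counts per gene name, 1 column per library, not normalized. HTSeq, DESeq2 and the builds GRCm39 and mm39 stand in the submitters' processing notes, and HTSeq counts reads per gene. The aligner, the annotation version and whether counting used strand are not given in the sources used here, so reads of a gene and of an antisense partner cannot be told apart, and near-identical copies are uncertain. The therapy table held 258140 lines for 55866 names. The 77 repeated names stood as all pairings of their values over sets of columns and were collapsed. Of all names in either table, 85 were skipped, 74 of them because their Control counts differed between the therapy and temporal tables, and 55782 were kept. All sample columns were used, with 0 left unassigned.

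Library sizes were scaled by TMM. Genes passing filterByExpr were fitted with edgeR 4.0.16 (quasi-likelihood, R 4.3.3) over the 4 groups of the therapy table, 16 libraries that share 1 estimate of spread, and AKI was contrasted with Control. AKI and IRI_6h were contrasted in a fit of 5 groups and 20 libraries. Benjamini-Hochberg adjusted p-values under 0.05 over all tested genes were called, and a ± beside a log2 fold change is its standard error. CPM values use TMM-scaled totals. Shares of the counts over the names kept were compared by exact permutation tests with Python 3.11.15 and scipy 1.17.1, and figures drawn with matplotlib 3.10.9. Over the names kept, the 8 libraries held 14938484 to 18475869 counts each. The fit was checked on simulated counts of 16623 genes, of which 200 were changed. It recovered 40% of 2-fold and 80% of 4-fold changes, with 5 false calls. The simulated AKI libraries shared the same expected level of each gene, so none was set apart as AKI_1 was. A gene that was not called may therefore still have changed.

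Alternatives were DESeq2 1.42.0, DESeq2 size factors in edgeR, no filter, the 2 groups alone, a replicate block, skipped names kept, each library left out, and IRI_6h libraries in place of AKI. The 2 groups alone without AKI_1 were added after seeing the data. Members and gene lists were chosen with earlier results of these data known. Genes were named by a rule: the 15 largest rises and falls that average 3 or more as log2 CPM and have groups that do not overlap, 40 set genes, up to 4 called and 2 other members of each list, the 8 genes farthest above and below in AKI_1, and the 6 largest differences from IRI_6h each way. A selection of these is printed. Some genes are not reported here.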

Additional observations from a re-analysis of the deposited data

Results flagged for a closer look

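In each group of 4 libraries, the gap between the highest or lowest log2 CPM and its nearest neighbour was divided by the range of the group and set against Dixon's critical ratio for 4 values. Of 302 groups of values examined, 30 passed, 27 of them in AKI and 3 in Control, and chance flags about 1 in 20 groups. The library that stood out was AKI_1 in all 27 AKI cases, high in 17 and low in 10. The genes were chosen partly for such gaps, so the number is a description.

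AKI_1 was high for Fos (0.863), Atf3 (0.833), Egr1 (0.832), Jun (0.875), Klf6 (0.932), Hspa1a (0.831), Hsph1 (0.835) and Pmaip1 (0.834), genes of early and stress responses. It was high for the tubule genes Slc22a19 (0.839), Fbp1 (0.953), Trpv5 (0.926) and Slc10a5 (0.977), and for Ehd3 (0.934) and Cdh5 (0.838) of endothelium. Malat1 (0.958), Iigp1 (0.836) and the share of mitochondrial ribosomal RNA (0.864) completed the high cases.

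AKI_1 was low for Trib3 (0.979) and Asns (0.892) of the integrated stress response, and for Nqo1 (0.888), Cbr3 (0.943) and Cyp2a5 (0.944). It was low for the growth genes Uhrf1 (0.843), Tcf19 (0.856) and Nop56 (0.918), and for Lyz2 (0.984) and Lrp2 (0.832). In Control, Cyp2a5 was low in Control_3 (0.911), Cdkn1a low in Control_2 (0.885) and Pmaip1 high in Control_2 (0.846).

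AKI and IRI_6h carry the same description of injury and time, and 5800 of 16821 genes were called between them by edgeR's quasi-likelihood test in the joint fit.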

How the results depend on the processing

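With libraries of each group left out in turn, 4509 to 8167 genes were called between AKI and Control, 2538 to 4092 of them higher and 1961 to 4075 lower, the highest counts being without AKI_1. AKI against Control alone gave 5017 calls (2731 higher, 2286 lower), and without AKI_1 as well 9399 (4620 higher, 4779 lower). DESeq2 gave 6530, DESeq2 size factors 5738, no filter 5440, skipped names kept 5799 and IRI_6h in place of AKI 6405. Between AKI and IRI_6h, a fit of these 2 groups alone gave 3375 calls (1678 higher, 1697 lower). The joint fit with single libraries left out gave 4785 to 7417 calls. The cause was not tested.

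The replicate block left 5471 calls between AKI and Control (2956 higher, 2515 lower) and 5271 between AKI and IRI_6h. No sign of pairing by replicate number was seen. Deviations of same-numbered AKI and Control libraries correlated at -0.059, -0.023, -0.001 and -0.043, and those of other pairs at -0.058 to 0.073. With 4 libraries in a group and AKI_1 apart, these values cannot show that the samples are unpaired. No library is known to share an animal. Under the block Dusp1 was -0.46 and Cyp11b1 -0.69 as log2 fold changes, the reverse sign, and Fos, Fosb, Egr1, Hspa1a, Mmp8, Pdk4, Malat1 and Per2 were not called.

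Of 149 genes examined singly, 126 were called. Of these, 81 were called in the same direction in every alternative that gave them an adjusted p. Some of the 81, Cyp7b1 and Fgf21 among them, did not have an adjusted p in all alternatives. With AKI and Control alone, 10 of the called genes had an adjusted p that missed the threshold. They were Slc6a19, Fos, Fosb, Egr1, Hspa1a, Synpo, Thy1, Malat1, Per2 and Arntl. Leaving out single libraries, the log2 fold change took both signs, ranging from -0.045 to 1.17 for Calb1, -1.18 to 1.56 for Nr4a1, -1.91 to 0.65 for Dusp1, -0.72 to 2.90 for Hspa1b, -0.68 to 3.23 for mt-Atp8, -2.15 to 1.88 for Star, -2.37 to 1.38 for Cyp11b1, -0.97 to 2.08 for Iigp1 and -0.97 to 0.89 for Srd5a2. With AKI and Control alone and without AKI_1, the reversed values were Calb1 -0.06, Nr4a1 -1.19, Dusp1 -1.92, Hspa1b -0.74, mt-Atp8 -0.69, Star -2.16, Cyp11b1 -2.38, Iigp1 -0.98 and Srd5a2 -0.99. With IRI_6h in place of AKI, which shares the Control libraries, log2 fold changes of opposite sign were Calb1 -1.79, Gata3 -0.034, Hspa1a -0.07, Hspa1b -0.072, Hsph1 -0.56, Plvap 0.18, Eng 0.26, Cdh5 0.16, Kirrel 0.96, Synpo 0.80, Pdgfra 0.43, Thy1 1.11, Col3a1 2.77, Col1a1 2.80, Col1a2 2.10, Mgp 2.05, Emilin1 1.85, Tmem119 1.83, mt-Atp8 -0.89, Ppargc1a 0.41, Tfam -0.54, Star -3.20, Cyp11b1 -5.71, Cidea -0.94, Hba-a1 0.31, Malat1 -0.31, Per2 -0.34, Arntl 0.69, Iigp1 -0.54, Srd5a2 -2.23 and Eif5b -0.16.

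The difference in the share of mitochondrial ribosomal RNA was 0.868 to 1.35 percentage points and that of haemoglobin -0.0374 to -0.0317 with single libraries left out, each at exact p = 0.0571, the smallest that 3 against 4 allows. In lists described as having no call in a direction, 25 list directions in all, edgeR at an unadjusted p under 0.05 counted any member in 4 and at most 3 members, and DESeq2 called at most 1 member in 2 of them.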
